A study of Mus musculus with 12 samples.

Results

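Libraries of OT-I CD8 T cells from day 14 tumours were compared with libraries of naive OT-I cells, over all genes. The comparison used 6 of the 12 bulk RNA-seq libraries of the series, 3 per group, and 16426 of 55401 gene identifiers passed the filter on low counts. The T cell receptor of OT-I cells is a transgene and recognises an ovalbumin peptide presented by H-2Kb, so the cells of both groups share the OT-I genotype and their antigen specificity. The naive cells (time label day 0) were taken from lymph nodes of OT-I mice that had no tumour. The day 14 cells, which the labels call exhausted, were OT-I cells that had been transferred into C57Bl6/J mice with B78ChOVA melanomas and were sorted as CD44+ cells from the tumours 14 days later. B78ChOVA is a mouse melanoma line engineered to make mCherry and ovalbumin. Day 4 libraries were made in the same way from tumours 4 days after transfer and serve here as the nearest group, and the remaining libraries are effector cells from a 5-day culture with antigen. No drug or other treatment is named for any group, and the labels give no ages. Naive and day 14 cells differ in host, tissue, antigen contact and sort at the same time, so the parts these play cannot be told apart. CD44 was a sort criterion of the tumour groups, so a higher Cd44 level is no finding.

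A naive CD8 T cell circulates through lymph nodes in a resting state that is held by factors such as TCF-1, LEF-1, FOXO1 and KLF2. When its receptor meets antigen it divides, takes up glucose, makes granzymes and cytokines and leaves for the tissue. Under antigen that persists, as in a tumour, such cells enter the state named exhaustion, in which several inhibitory receptors are displayed together and the DNA-binding proteins TOX and NR4A are made at high level, while production of several effector cytokines wanes.

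The 6 libraries held 11937053 to 17094006 gene counts each, with 11937053 to 12793008 in naive and 15137864 to 17094006 in day 14 libraries. Reads outside annotated genes made up 25.8% to 30.2% of all reads in naive and 22.7% to 25.1% in day 14 libraries. Across genes, log2 levels of libraries of the same group correlated with Pearson r of 0.970 to 0.981 and those of a naive and a day 14 library with 0.777 to 0.821, where genes are not independent replicates. Nothing in the labels says that the libraries of a group came from separate animals, so the spread between libraries may be technical. The p-values and standard errors measure that spread as estimated in 1 fit of all 12 libraries, with the effector and day 4 libraries included. Levels are CPM, counts scaled to a common library size with TMM factors computed here, and values in a row are replicates 1, 2 and 3. Gene coordinates are on GRCm38 from GENCODE M21. The figure after ± beside a log2 fold change is its SE, and adjusted p-values are from edgeR's quasi-likelihood test with Benjamini-Hochberg adjustment over all genes tested. Cd8a, a chain of the CD8 coreceptor, was at 1135, 1136 and 1174 CPM in naive and 1295, 1328 and 1298 CPM in day 14 libraries, which missed the threshold (log2 fold change 0.19 ± 0.09, adjusted p = 0.0746). It was called higher without day 4 replicate 1 (log2 fold change 0.20, adjusted p = 0.0363), with DESeq2's size factors (0.0450), with no filter on low counts (0.0385) and with the compared libraries alone (0.0419). Of 8 defining genes of CD8 T cells 5 were not called, Cd3g was higher, and Cd8b1 and Trbc2, a receptor constant region, were lower. The summed level of the 8 was 4519 to 5062 CPM in naive and 4169 to 4479 CPM in day 14 libraries, so the defining genes were abundant in all 6.

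Transcripts of other cell types moved with the group as well, and those of melanoma cells also differed among the day 14 libraries. All 10 melanoma markers (Mlana, Pmel, Tyr, Tyrp1, Dct, Mitf, Sox10, Slc45a2, Gpnmb and S100b) were called higher at day 14. Their summed level was 26.9 to 34.2 CPM in naive libraries, 881 to 1315 CPM at day 4 and 2054, 869 and 513 CPM in day 14 replicates 1, 2 and 3. Dct, a melanin synthesis enzyme, held most of it, with 1214, 492 and 318 CPM at day 14 against 0.591, 2.15 and 0.612 CPM in naive libraries (log2 fold change 9.25 ± 0.76, adjusted p = 8.55e-06). Its log2 fold change was 8.52 without day 14 replicate 1 and 10.11 without naive replicate 2. Gpnmb, a melanosome glycoprotein, was at 389.7, 172 and 85.01 CPM and moved from a log2 fold change of 8.02 to 7.29 without day 14 replicate 1. Day 14 replicate 1 thus carried about 4.01 times the melanoma marker level of replicate 3. A gene is said here to follow the melanoma order when its day 14 level was at least 2 times as high in replicate 1 as in replicate 3, with replicate 2 between, and averaged at least 1 CPM. Of 13769 genes at that level 866 (6.29%) followed this order and 196 (1.42%) the reverse of it. Among genes called at least 16-fold higher at day 14, 393 of 1187 (33.1%) followed it, against 170 of 2109 (8.06%) of those 2 to 16-fold higher, 4 of 1927 (0.208%) of those under 2-fold higher and 89 of 3691 (2.41%) of those called lower. The reverse order held 1.85%, 1.38%, 0.0519% and 1.25% of these classes. A gene that spreads 2-fold within day 14 is seldom called at a small fold. The low shares under 2-fold thus follow in part from the call itself. The part of melanoma RNA in these differences was not tested beyond this order.

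**Figure D1:**
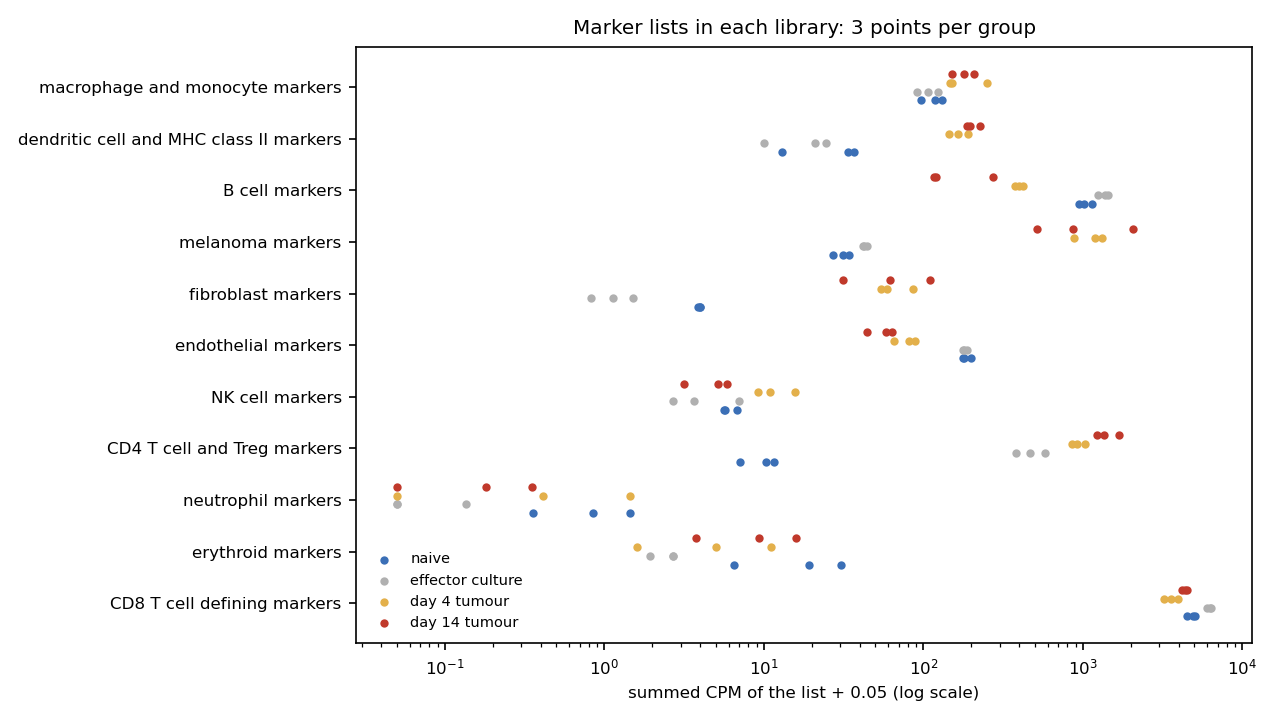
Summed CPM of the members of each marker list in each of the 12 libraries, plus 0.05, on a log scale, with 3 points per group coloured by group. The day 14 points of the melanoma list spread from 513 to 2054 CPM, while the CD8 T cell defining markers lie between 4169 and 4479 CPM at day 14 and between 4519 and 5062 CPM in naive libraries.

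Among macrophage and monocyte markers 6 of 18 were called higher, all at least 2-fold, and 0 lower, where 33.6% and 28.5% of all genes were. The median log2 fold change of the 18 was 1.49, and their summed level was 96.3 to 130 CPM in naive and 151 to 207 CPM in day 14 libraries. Much of that was Ctss, a lysosomal protease that T cells also express and that was not called (83.2, 92.9 and 75.9 against 75.8, 75.9 and 80.2 CPM), and Apoe, an apolipoprotein, which rose to 65.2, 36.8 and 31.1 CPM (log2 fold change 3.38 ± 0.31). Apoe followed the melanoma order. The largest fitted log2 fold change in the list was 6.51. Csf1r, the defining receptor of macrophages and named here after its values were seen, was not called and does not stand for the 6 that were. It was at 1.25, 0.706 and 3.21 CPM at day 14 and 3.99, 2.47 and 0.536 CPM in naive libraries. All 8 tested dendritic cell and MHC class II markers were called higher, with a summed level of 13.0 to 36.4 CPM in naive and 187 to 225 CPM in day 14 libraries, led by Cd74, the invariant chain of class II molecules (70.1, 90.6 and 88.9 CPM), and H2-Aa (28.3, 44.4 and 30.9 CPM). Of 7 tested fibroblast markers 5 were called higher, from 3.83 to 3.92 CPM in sum to 31.4 to 109.8 CPM, of which Sparc, a matrix protein that melanoma cells make too, held 100.4, 42.4 and 21.3 CPM, in the melanoma order. Sparc rose by 7.13 on the log2 scale, 6.36 without day 14 replicate 1 and 7.84 without naive replicate 3. Col3a1, a collagen, was at 1.32, 7.94 and 2.72 CPM with 2 counts in the naive libraries, a ratio of 80.4-fold (95% counting interval 21.98 to 669), and was not called without naive replicate 2 (adjusted p = 0.0511). Of the endothelial genes, Vwf followed the melanoma order (8.05, 2.12 and 1.21 CPM), while Pecam1, which T cells also express, fell from 198, 178 and 179 to 48.2, 41.2 and 56.01 CPM (log2 fold change -1.93 ± 0.12). Vwf held 2 counts in the naive libraries, a ratio of 71.6-fold (95% counting interval 19.5 to 596). The neutrophil list had no tested gene and stayed at or below 1.40 CPM in sum, the erythroid list had 0 of 4 genes called (Hbb-bs and Alas2 among them), and 1 of 2 tested NK cell markers was called (Klri2, 2.97, 0.764 and 1.76 CPM, with Tyrobp not called, adjusted p = 0.0657). Tyrobp was called lower without day 4 replicate 1 (adjusted p = 0.0193) or 3 (0.0219), with total counts as scaling (0.0470), with no filter on low counts (0.0291) and with the compared libraries alone (0.0106). Klri2 stood at 7.72 (log2) without naive replicate 3 against 4.04. Among CD4 T cell and Treg markers 5 of 6 were called higher, but the defining Cd4 (4.49, 3.94 and 2.36 CPM) and Foxp3 (4.49, 4.41 and 2.24 CPM, not called, adjusted p = 0.0673) were low, and the rise to 1223 to 1684 CPM in sum lay in Ctla4, Il2ra and Tnfrsf4, which activated CD8 cells also make. Cd4 had a log2 fold change of 3.19, or 3.95 without naive replicate 2, and Foxp3 was called without day 14 replicate 3 (log2 fold change 1.19, adjusted p = 0.0265). B cell markers went the other way, with 5 of 6 called lower. Their summed level was 939 to 1142 CPM in naive, 1242 to 1427 CPM in effector culture and 116 to 272 CPM in day 14 libraries. In naive and day 14 libraries nearly all of it was Ighm and Ighd, so the other B cell markers were low. Ighm, the heavy chain of IgM, was at 827, 895 and 993 CPM in naive libraries and 103, 111 and 263 CPM at day 14 (log2 fold change -2.51 ± 0.33), and Ighd, that of IgD, at 90.1, 98.8 and 131 and 8.19, 7.29 and 6.66 CPM (log2 fold change -3.85 ± 0.15).

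By edgeR's quasi-likelihood test with Benjamini-Hochberg adjustment, 10202 of 16426 genes were called at an adjusted p under 0.05 (62.1%), of which 5527 were higher (33.6% of genes tested) and 4675 lower (28.5%) at day 14. Calls of at least 2-fold numbered 6359 (38.7%), with 3600 higher (21.9%) and 2759 lower (16.8%). In 11245 genes (68.5%) the 3 libraries of each group did not overlap. The median log2 fold change of all genes was 0.04. With total counts as scaling that median was -0.04 and the split of calls 5124 higher and 5084 lower. Outside the melanoma order 4960 genes were called higher and 4586 lower. Genes called higher held 25.1% of CPM in naive and 49.0% in day 14 libraries, and genes called lower 45.8% and 23.2%. With so many genes called, a count of members within a gene list is read against these shares of all genes. The lists were chosen with earlier results of these data known, so such a count is a description and no independent support. Bulk libraries cannot tell fewer cells that make a transcript from less of it per cell.

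**Figure D2:**
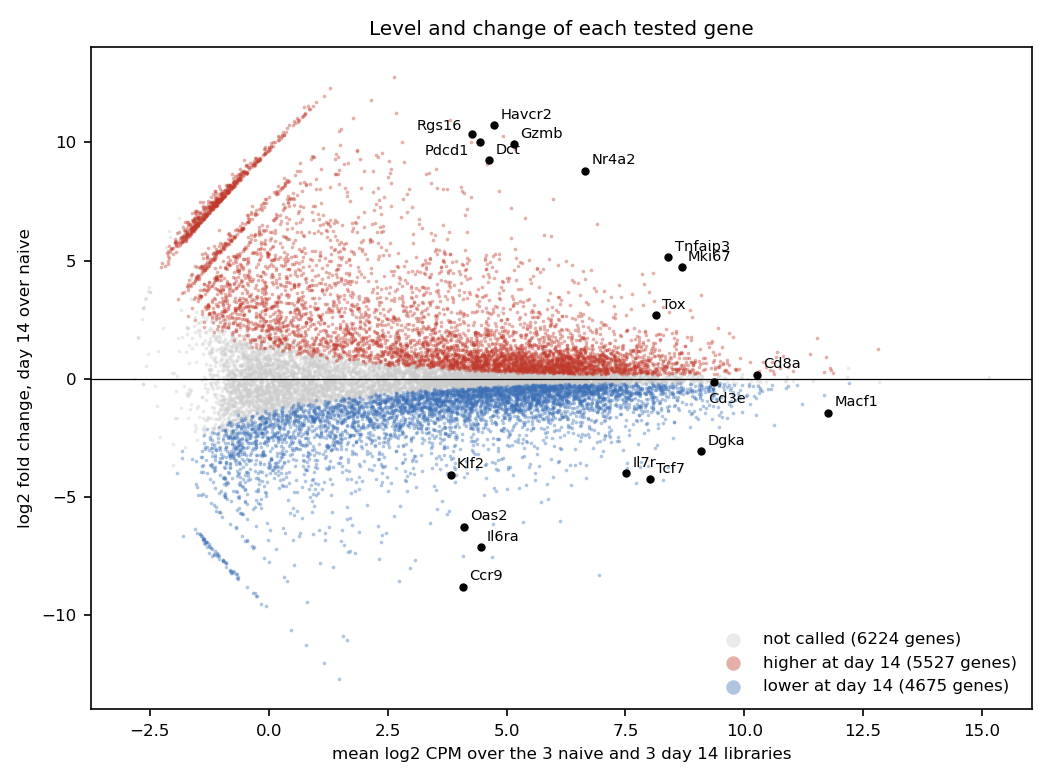
Each point is a tested gene, with its mean log2 CPM over the 6 libraries on the x axis and its log2 fold change (day 14 over naive) on the y axis, coloured by call, and some genes named in the text are marked. Points in straight diagonal lines at low level are genes with no or very few counts in a group, whose fitted fold change depends on the prior count.

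Most inhibitory receptors were higher at day 14, and the best known of them were near 0 in naive cells. Of 16 tested genes of this list 12 were called higher, all at least 2-fold, and 3 lower, with a median log2 fold change of 6.53 against 0.04 over all genes. Pdcd1 (ENSMUSG00000026285.7, chromosome 1, 94038305 to 94052553) encodes PD-1, which recruits phosphatases to the receptor synapse, and was at 1.11, 0.717 and 0.153 CPM in the naive and 646, 756 and 688 CPM in the day 14 libraries (log2 fold change 10.02 ± 0.35, adjusted p = 9.22e-10). Havcr2 (ENSMUSG00000020399.14, chromosome 11, 46454935 to 46481255), the gene of TIM-3, went from 0.591, 0.796 and 0.383 CPM to 1092, 1190.2 and 792 CPM (log2 fold change 10.75 ± 1.27, adjusted p = 9.91e-05), the highest of the 10 genes named for their fold. Ctla4 (ENSMUSG00000026011.13, chromosome 1, 60887000 to 60915832), which competes with CD28 for its ligands, stood at 0.739, 1.59 and 1.3 CPM and at 1206, 882 and 991 CPM (log2 fold change 9.73 ± 0.28, adjusted p = 3.41e-11). Groups without overlap were a condition for naming these 3 receptors by fold, and 68.5% of all genes met it. Tigit (ENSMUSG00000071552.5, chromosome 16, 43648867 to 43664146), a receptor for the nectin-like protein CD155, was at 0.813, 0.398 and 0.383 and 597, 537 and 548 CPM (log2 fold change 10.01 ± 0.57, adjusted p = 4.4e-07). Lag3 (ENSMUSG00000030124.2, chromosome 6, 124904361 to 124911705), a CD4-like receptor for class II molecules, went from 0.0739, 0.159 and 0.306 to 131, 111 and 88.1 CPM (log2 fold change 9.20 ± 0.65, adjusted p = 1.14e-06). Entpd1, the ectonucleotidase CD39, went from 0.443, 0.717 and 0.153 to 88.5, 74.3 and 46.3 CPM (log2 fold change 7.30 ± 0.56). Of the 12 that rose, Lilrb4a alone followed the melanoma order.

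Against the rest of the list, Vsir, the gene of VISTA, fell from 221, 205 and 234 to 51.96, 56.97 and 46.7 CPM (log2 fold change -2.08 ± 0.11), Btla, a receptor for HVEM, from 136, 117 and 124 to 43.4, 37.98 and 55.5 CPM (log2 fold change -1.46 ± 0.18), and Cd96, a CD155 receptor, from 397, 379 and 411 to 307, 303 and 314 CPM (log2 fold change -0.36 ± 0.09). These 3 receptors were thus at 117 CPM or more in every naive library, and their groups did not overlap, as in 68.5% of all genes. Without naive replicate 1 the log2 fold change of Pdcd1 was 10.64, and without naive replicate 3 that of Lag3 was 9.80. Day 14 was also above day 4 for 8 of the 16 receptors and below it for 1, where 7.17% and 4.91% of all genes were called. Pdcd1 was 373, 353 and 409 CPM at day 4 (log2 difference 0.88, adjusted p = 0.0187) and Ctla4 433, 375 and 512 CPM (log2 difference 1.22, adjusted p = 0.000629). Havcr2 was 106, 118 and 223 CPM at day 4, below every day 14 library, but missed the threshold between the tumour groups (log2 difference 2.78, adjusted p = 0.0551). The spread of its effector libraries (2.73, 29.0 and 1.78 CPM) entered that test too.

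**Figure D3:**
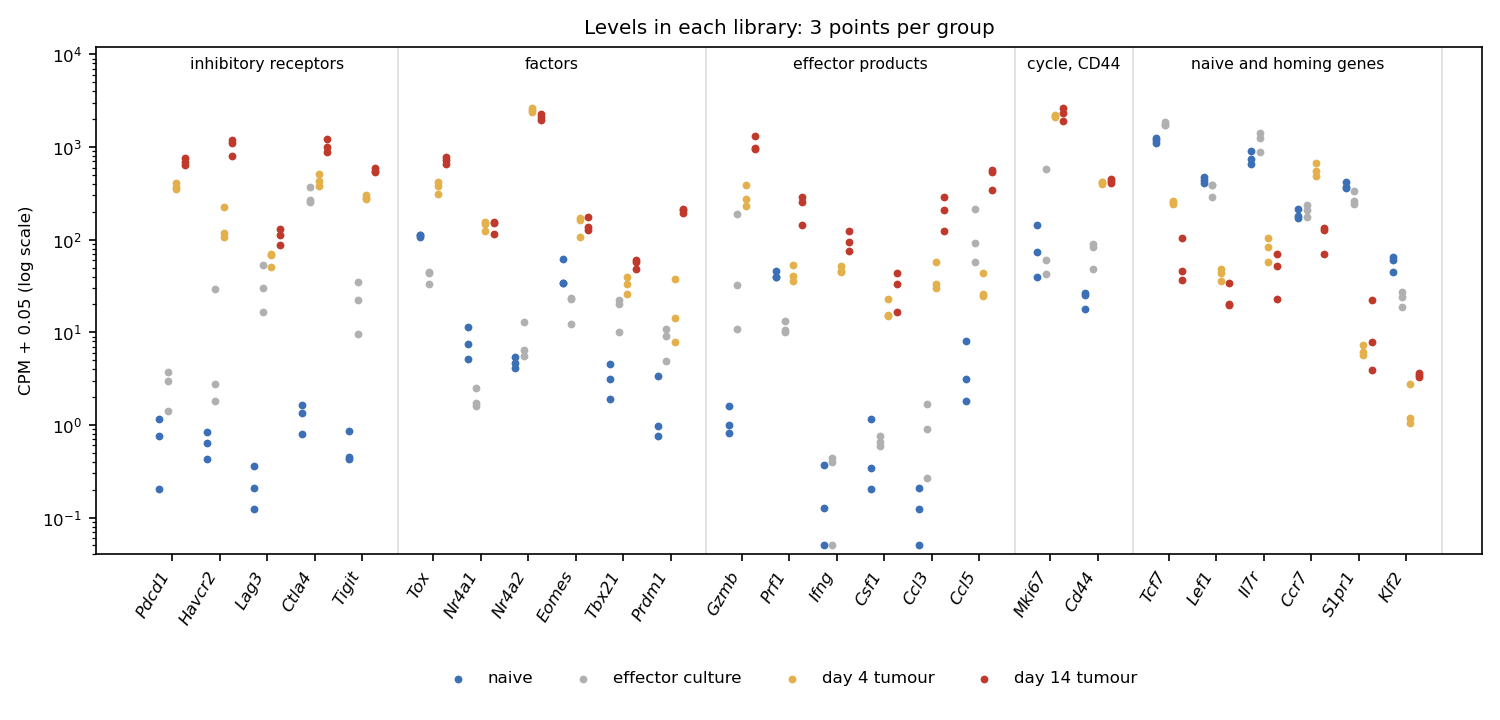
CPM plus 0.05 on a log scale of the panel genes reported here and of Prdm1 in every library, 3 points per group, ordered by role. Inhibitory receptors, factors and effector products have their day 14 points above the naive points, Tcf7, Lef1, Il7r, Ccr7, S1pr1 and Klf2 have them the other way round, and CD44 was a sort criterion.

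Transcription factors linked to exhaustion were higher at day 14 without exception in the list, with 18 of 18 called higher and at least 2-fold and a median log2 fold change of 3.48. Of all genes 33.6% were called higher and 21.9% at least 2-fold higher, and the list was chosen with earlier results of these data known. Tox (ENSMUSG00000041272.11, chromosome 4, 6686353 to 6991557), a chromatin-binding factor needed for the exhausted state, was already present in naive cells at 112, 114 and 107 CPM and was at 662, 774 and 721 CPM at day 14 (log2 fold change 2.70 ± 0.13, adjusted p = 4.02e-11). Tox2 stayed far lower, at 0.0739, 0 and 0.23 and 5.61, 14.8 and 11.2 CPM (log2 fold change 6.57 ± 0.65), and stood at 7.83 (log2) without naive replicate 3. The NR4A receptors are induced by receptor signalling. Nr4a2 (ENSMUSG00000026826.13, chromosome 2, 57106830 to 57124003) had one of the 5 largest rises in CPM among the genes named by rule, from 4.06, 5.34 and 4.67 to 1959, 2253 and 2082 CPM (log2 fold change 8.81 ± 0.30, adjusted p = 7.44e-10). Nr4a3 went from 10.8, 9.88 and 16.8 to 1186, 1031 and 1251 CPM (log2 fold change 6.53 ± 0.29) and Nr4a1 from 5.1, 7.41 and 11.3 to 114, 152 and 154 CPM (log2 fold change 4.14 ± 0.25). In each of the 3 NR4A genes the groups did not overlap, as in 68.5% of all genes, and for Nr4a2 this was a condition of its naming. No difference between day 14 and day 4 was called, with log2 differences of -0.02, -0.25 and -0.64 for Nr4a1, Nr4a2 and Nr4a3. Bhlhe40 (ENSMUSG00000030103.11, chromosome 6, 108660629 to 108666925), a repressor that limits IL-10 and sustains effector cytokines, was at 1.18, 0.717 and 0.536 and 1088, 955 and 1031 CPM (log2 fold change 10.28 ± 0.34, adjusted p = 5.14e-10).

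Prdm1 (ENSMUSG00000038151.13, chromosome 10, 44437177 to 44528501), the gene of BLIMP-1, a repressor of terminal effector cells, was at 3.33, 0.717 and 0.919 CPM in naive and 213, 211 and 195 CPM in day 14 libraries (log2 fold change 6.94 ± 0.76, adjusted p = 5.7e-05), and at 7.85, 14.1 and 37.9 CPM at day 4 (log2 difference 3.37, adjusted p = 0.00688). Without naive replicate 1 its log2 fold change over naive was 7.97. The T-box factors moved less. Eomes was at 33.7, 61.8 and 34.1 and 128, 177 and 136 CPM (log2 fold change 1.77 ± 0.32) and Tbx21, the gene of T-bet, at 3.1, 4.46 and 1.84 and 56.9, 60.97 and 48.01 CPM (log2 fold change 4.14 ± 0.35). Batf and Irf4, partners at AP-1 composite sites, went from 40.1, 50.97 and 55.6 to 214, 229 and 233 CPM (log2 fold change 2.21 ± 0.11) and from 6.21, 18.9 and 6.97 to 155, 129.9 and 167 CPM (log2 fold change 3.82 ± 0.38), with 4.52 for Irf4 without naive replicate 2. Id2, an inhibitor of E proteins, was at 5.25, 5.73 and 7.96 and 242, 236 and 174 CPM (log2 fold change 5.10 ± 0.27), while its relative Id3, counted among the stem-like genes, went the other way, from 16.2, 35.04 and 34.1 to 0.924, 1.12 and 1.15 CPM (log2 fold change -4.72 ± 0.32). In the list of factors, 1 of 18 (Maf) followed the melanoma order.

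Genes of the naive and stem-like state were lower at day 14 in nearly all cases. Of 23 tested genes 21 were called lower, 20 of them at least 2-fold, and 1 higher, with a median log2 fold change of -3.59. Tcf7 (ENSMUSG00000000782.16, chromosome 11, 52252371 to 52283014), which encodes TCF-1, was at 1116, 1187 and 1246 CPM and 45.95, 36.6 and 104 CPM (log2 fold change -4.25 ± 0.36, adjusted p = 6.9e-06), and its partner Lef1 at 475, 405 and 444 and 19.5, 20.2 and 33.7 CPM (log2 fold change -4.17 ± 0.23, adjusted p = 1.86e-08). In both genes the day 14 libraries lay well below every naive library, and groups did not overlap in 68.5% of all genes. Day 14 replicate 3 had the highest Tcf7 level of its group, and without it the log2 fold change was -4.84. Il7r, the survival cytokine receptor of naive and memory cells, fell from 898, 662 and 735 to 52.2, 22.9 and 69.9 CPM (log2 fold change -3.99 ± 0.43, adjusted p = 4.83e-05). Il6ra, the IL-6 receptor, fell from 260.3, 274 and 246 to 1.45, 1.12 and 3.03 CPM (log2 fold change -7.11 ± 0.41). Klf2 and Klf3, Krüppel-like factors of resting cells, fell from 45.1, 64.8 and 60.3 to 3.57, 3.23 and 3.45 CPM (log2 fold change -4.05 ± 0.27) and from 598, 465 and 633 to 10.2, 5.17 and 11.3 CPM (log2 fold change -5.99 ± 0.58). S1pr1, which KLF2 drives and which brings cells out of lymph nodes, fell from 360.5, 371 and 418 to 7.86, 3.88 and 22.3 CPM (log2 fold change -5.08 ± 0.54, adjusted p = 4.58e-05), or -6.03 (log2) without day 14 replicate 3.

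Satb1, a chromatin organiser, fell from 1373, 1447 and 1408 to 78.96, 47.5 and 90.7 CPM (log2 fold change -4.28 ± 0.29), and Bach2, a repressor that restrains effector genes, from 166, 162 and 154 to 17.5, 7.88 and 14.7 CPM (log2 fold change -3.59 ± 0.22). Igfbp4, a binding protein for insulin-like growth factors, was at 43.01, 59.4 and 49.4 and 1.12, 0.353 and 0.121 CPM (log2 fold change -6.59 ± 0.81), and its log2 fold change was -7.67 without day 14 replicate 1. Myb, which maintains stem-like exhausted cells, was the gene that rose, from 35.5, 24.8 and 24.95 to 74.7, 63.03 and 94.3 CPM (log2 fold change 1.44 ± 0.17). Ccr7, the lymph node chemokine receptor, fell from 171, 179 and 216 to 134, 69.6 and 128 CPM (log2 fold change -0.77 ± 0.23, adjusted p = 0.013). At day 4 it stood at 668, 552 and 488 CPM, above every naive library (log2 difference between day 14 and day 4 -2.37, adjusted p = 0.000128). Of the 23 genes 14 were called lower at day 14 than at day 4 and 1 higher, where 4.91% and 7.17% of all genes were.

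Cytotoxic genes split into a large group that rose and some that did not. Of 18 tested genes 13 were called higher, all at least 2-fold, and 0 lower, with a median log2 fold change of 2.36. Gzmb (ENSMUSG00000015437.5, chromosome 14, 56258838 to 56262260), a granule protease that triggers apoptosis, was at 1.55, 0.956 and 0.765 CPM in naive and 1304, 965 and 949.8 CPM in day 14 libraries (log2 fold change 9.92 ± 1.31, adjusted p = 0.000201). Gzmk (ENSMUSG00000042385.14, chromosome 13, 113171608 to 113225908), a granzyme with tryptase activity, had 1 count in all naive libraries together and stood at 211, 268 and 237 CPM at day 14, a ratio of 9377-fold (95% counting interval 1683 to 370406), and was called (adjusted p = 4.54e-06). Prf1 (ENSMUSG00000037202.6, chromosome 10, 61297833 to 61304680), the gene of the pore protein perforin, was at 39.2, 46.03 and 39.3 CPM in naive cells and 256, 291 and 144 CPM at day 14 (log2 fold change 2.47 ± 0.24, adjusted p = 4.39e-06). These genes thus stood apart between groups, with the naive level near 0 for both granzymes but not for perforin. Fasl, the ligand of the death receptor FAS, went from 0.0739, 0.239 and 0.153 to 159, 200.2 and 152 CPM (log2 fold change 10.04 ± 0.59). Gzmf was without a count in the naive libraries and at 4.42, 2.65 and 0.666 CPM at day 14, in the melanoma order, at least 32.98-fold higher against a floor of 3 counts over the group. Nkg7, a granule membrane protein, was high in naive cells too, at 171, 195 and 215 CPM, and rose to 815, 745 and 662 CPM (log2 fold change 1.94 ± 0.12). Gzma, a granzyme typical of memory cells, was at 1.77, 3.11 and 1.53 and 12.9, 4 and 13.5 CPM, which missed the threshold (log2 fold change 2.25 ± 1.42, adjusted p = 0.204). Prf1 was 35.6, 40.9 and 53.3 CPM at day 4, below day 14 (log2 difference 2.41, adjusted p = 9.27e-05). Of the 18 genes 6 were called higher at day 14 than at day 4 and 0 lower, where 7.17% and 4.91% of all genes were.

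Secreted cytokines and chemokines were higher in most cases, with 17 of 22 called higher and 3 lower. The median log2 fold change was 6.35, or 5.22 with the 5 genes without a naive count at their lower bounds. Ifng (ENSMUSG00000055170.4, chromosome 10, 118441046 to 118445892), the gene of interferon gamma, was at 0, 0.319 and 0.0765 CPM in naive and 123, 93.7 and 75.8 CPM in day 14 libraries (log2 fold change 9.48 ± 0.45, adjusted p = 1.43e-09), and its log2 fold change was 11.05 without naive replicate 2. The chemokines Ccl3 (ENSMUSG00000000982.5, chromosome 11, 83647844 to 83649355) and Ccl4, which attract T cells and myeloid cells, were at 290.0, 208 and 125 CPM and 64.9, 54.97 and 34.6 CPM at day 14. In the naive libraries they had 3 and 1 counts in all, which gives ratios of 2678-fold (95% counting interval 916 to 12989) and 2003-fold (95% counting interval 359 to 79145). Ccl5 (ENSMUSG00000035042.2, chromosome 11, 83525778 to 83530518), another inflammatory chemokine, was at 3.1, 8.04 and 1.76 and 538, 568 and 339.8 CPM (log2 fold change 6.82 ± 0.74, adjusted p = 5.35e-05), or 7.63 without naive replicate 2. The day 14 levels of Ccl3 and Ccl4 were highest in replicate 1 and lowest in replicate 3, the order of the melanoma markers, and Ccl3 met the rule for it. The part of melanoma RNA in them was not tested. Xcl1, which attracts cross-presenting dendritic cells, was at 1.03, 0.239 and 0.459 and 185, 122 and 248 CPM (log2 fold change 8.28 ± 0.63), highest in replicate 3, and stood at 9.01 (log2) without naive replicate 1.

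Csf1, the growth factor of macrophages, was at 0.296, 1.11 and 0.153 CPM in naive and 32.8, 43.4 and 16.4 CPM in day 14 libraries (log2 fold change 5.89 ± 0.51, adjusted p = 4.43e-07), or 7.05 without naive replicate 2. Ccl1, a ligand of CCR8, had no naive count and stood at 40.9, 20.6 and 25.6 CPM (at least 373-fold higher, adjusted p = 7.94e-09). Il10, an anti-inflammatory cytokine, also had no naive count, and stood at 16.2, 25.3 and 16.8 CPM (at least 256-fold higher, adjusted p = 9.38e-08) and above its day 4 level of 0.513, 0.661 and 1.54 CPM (log2 difference 4.41, adjusted p = 4.55e-05). Both floors are 3 counts over the group. The genes that fell were Il16 (94.9, 87.8 and 107 to 11.4, 15.6 and 18.3 CPM), a chemoattractant made as a precursor, Flt3l (99.1, 119.5 and 104 to 32.2, 33.5 and 29.8 CPM), the growth factor of dendritic cells, and Ltb (70.5, 82.9 and 85.6 to 36.7, 33.7 and 36.1 CPM), which organises lymphoid tissue. Their log2 fold changes were -2.68, -1.75 and -1.17 (SE 0.15, 0.12 and 0.11). Ccl5 was 24.7, 26.1 and 43.1 CPM and Ccl3 33.5, 30.1 and 56.9 CPM at day 4, so both were higher at day 14 (log2 differences 3.94 and 2.37, adjusted p = 0.00388 and 0.00435).

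The list of costimulatory receptors, which also holds the ligand gene Cd40lg, moved in both directions. Of 13 genes 7 were called higher, all at least 2-fold, and 4 lower, where 33.6% and 28.5% of all genes were called. The share called lower was thus near that of all genes. The median log2 fold change of the list was 1.52. Tnfrsf9 (ENSMUSG00000028965.13, chromosome 4, 150914562 to 150946102), the gene of 4-1BB, was at 3.77, 1.83 and 2.68 CPM and 449, 438 and 383 CPM (log2 fold change 7.25 ± 0.17, adjusted p = 1.6e-14). Tnfrsf4, the gene of OX40, went from 3.03, 5.26 and 4.75 to 178, 166 and 159 CPM (log2 fold change 5.27 ± 0.16), and Tnfrsf1b, the gene of TNFR2, from 28.8, 35.5 and 33.1 to 411, 424 and 433 CPM (log2 fold change 3.70 ± 0.14). Icos, a relative of CD28, rose from 65.99, 90.2 and 83.6 to 723, 653 and 696 CPM (log2 fold change 3.11 ± 0.13). These 4 receptors did not overlap between groups, as in 68.5% of all genes. The 4 that fell were Tnfrsf25, the gene of DR3 (14.2, 6.93 and 9.19 to 0, 0.294 and 0.182 CPM, log2 fold change -5.88), Cd40lg, the gene of CD40 ligand (14.3, 5.89 and 10.4 to 1.32, 0.118 and 2.42 CPM, -2.98), Tnfrsf14, the gene of HVEM (50.7, 52.96 and 48.1 to 21.3, 19.1 and 18.3 CPM, -1.37), and Cd27 (536, 620.0 and 626 to 464, 503 and 536 CPM, -0.25). The Cd27 call was lost without naive replicate 2 or 3 or day 14 replicate 1 (adjusted p = 0.0973, 0.102 and 0.0943). Tnfrsf25 stood at -6.62 (log2) without day 14 replicate 2 and Cd40lg at -3.84 without day 14 replicate 3.

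Chemokine receptors differed between the groups in both directions. Of 14 tested genes of the chemokine and egress receptor list 8 were called higher and 4 lower, where 33.6% and 28.5% of all genes were. The share called lower was thus near that of all genes. The median log2 fold change of the list was 1.37. Ccr8, which marks tumour Treg cells and some tissue CD8 cells, had no naive count and stood at 24.8, 23.3 and 23.7 CPM (at least 312-fold higher against a floor of 3 counts over the group, adjusted p = 3.66e-10). Cx3cr1, a marker of effector-like cells, had 3 naive counts and stood at 38.95, 45.4 and 20.2 CPM, a ratio of 455-fold (95% counting interval 155 to 2207). Both receptors were thus near 0 in naive cells. Cxcr6, a receptor of tissue-resident cells, rose from 28.9, 33.8 and 48.4 to 533, 539 and 389 CPM (log2 fold change 3.72 ± 0.36). Ccr9 (ENSMUSG00000029530.16, chromosome 9, 123678439 to 123784330), which leads cells to the small intestine, had the deepest fall of the genes named by fold, from 277, 282 and 458 to 0.924, 0.47 and 0.908 CPM (log2 fold change -8.78 ± 0.89, adjusted p = 3.53e-05). The others that fell were S1pr1, Ccr7 and S1pr4, another sphingosine phosphate receptor (75.7, 97.6 and 91.2 to 24.4, 33.6 and 32.4 CPM, log2 fold change -1.55).

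Among 18 adhesion and residency genes 11 were called higher and 4 lower, with a median log2 fold change of 0.65. Rgs1, which damps chemokine receptor signals, was at 1.26, 3.03 and 1.22 and 516, 390.0 and 440.0 CPM (log2 fold change 7.94 ± 0.28). Itga1, a collagen-binding integrin chain, had 2 naive counts and stood at 31.03, 11.1 and 10.9 CPM, a ratio of 337-fold (95% counting interval 93.01 to 2788), and followed the melanoma order. Its day 14 level was highest in replicate 1, the library richest in melanoma markers. Cd44, used in the sort, was at 26.8, 17.7 and 25.5 and 450.4, 411 and 432 CPM. Among those that fell were Itgae, the gene of CD103 (112, 138 and 122 to 10.5, 5.29 and 10.6 CPM, log2 fold change -3.82), its partner Itgb7 (277, 286 and 334 to 14.7, 16.99 and 40.1 CPM, log2 fold change -3.64) and Itga6 (107, 109.8 and 108 to 68.3, 47.9 and 55.8 CPM, log2 fold change -0.92). The 2 chains of the CD103 integrin, which binds E-cadherin, were thus both lower in day 14 tumours than in lymph node cells. Itgb7 stood at -4.23 (log2) without day 14 replicate 3.

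Cytokine receptors were divided, with 10 of 22 called higher and 9 lower, where 33.6% and 28.5% of all genes were, and a median log2 fold change of 0.30. Il2ra, the alpha chain of the IL-2 receptor, went from 0.961, 1.75 and 1.68 to 283, 159.5 and 195 CPM (log2 fold change 7.18 ± 0.39). Il2rb, the beta chain shared with the IL-15 receptor, had one of the 5 largest rises in CPM among the genes the naming rule covers, from 119.9, 198 and 161 to 1899, 2058 and 1694 CPM (log2 fold change 3.56 ± 0.23, adjusted p = 2.29e-07). Il10ra, a chain of the IL-10 receptor, went from 16.8, 23.5 and 18.9 to 369.8, 399 and 301 CPM (log2 fold change 4.18 ± 0.30). So Il2ra and Il2rb rose while Il7r and Il6ra, given above, fell.

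Genes of the T cell receptor complex and its proximal kinases mostly differed by less than 2-fold. Of 18 genes 4 were called higher and 9 lower, none of the former and 3 of the latter at least 2-fold, and the median log2 fold change was -0.26. Cd3e was at 727, 643 and 718 and 612, 673 and 608 CPM, a difference that missed the threshold (log2 fold change -0.14 ± 0.08, adjusted p = 0.16), but with total counts as scaling it was called lower (adjusted p = 0.0363). Prkcq, the kinase PKC-theta downstream of the receptor, fell from 469, 486 and 469 to 131, 112 and 149 CPM (log2 fold change -1.86 ± 0.10). Cd8b1 fell from 862, 861 and 958 to 371, 361 and 409 CPM (log2 fold change -1.23 ± 0.10) while Cd8a, its partner chain, was not called. Cd247, the zeta chain, fell by 0.83 on the log2 scale. Ptprc, the gene of CD45, had one of the 5 largest falls in CPM among the genes the naming rule covers, from 4267, 4021 and 4189 to 2624, 2401 and 2758 CPM (log2 fold change -0.68 ± 0.07). The genes that rose were Lcp2, Zap70, Fyn and Cd3g, with log2 fold changes of 0.76, 0.72, 0.56 and 0.44.

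Brakes on receptor signalling were mostly higher. Of 27 genes 18 were called higher, 14 of them at least 2-fold, and 4 lower, with a median log2 fold change of 1.22. Dusp4, a phosphatase of MAP kinases, was at 0.517, 1.04 and 0.765 CPM in naive and 215, 195 and 208 CPM in day 14 libraries (log2 fold change 8.05 ± 0.18, adjusted p = 6.38e-15). Spry2 and Spry1, Sprouty inhibitors of the RAS pathway, had no naive count and stood at 21.6, 13.6 and 16.4 CPM and 1.98, 2.12 and 1.03 CPM (at least 223-fold higher and at least 22.3-fold higher). Rnf128, the ubiquitin ligase GRAIL linked to anergy, had none either, stood at 6.8, 5.7 and 2.06 CPM (at least 62.7-fold higher) and followed the melanoma order. The floor is 3 counts over the group for each. Of those that fell, Dgka, a diacylglycerol kinase that ends receptor signals and is abundant in resting cells, went from 1554, 1541 and 1650.1 to 189.6, 149 and 236 CPM (log2 fold change -3.05 ± 0.13). The other 3 were Cbl, Ptpn6 and Csk, with log2 fold changes of -0.72, -0.60 and -0.48, and Csk was not called without naive replicate 2 or 3 or day 14 replicate 1 (adjusted p = 0.0548, 0.0504 and 0.0576). Thus the brakes did not move as a block, and Dgka fell the most of these 4.

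Killer lectin-like receptors, which NK cells and activated CD8 cells share, had 6 of 8 tested members called higher and 1 lower, with a median log2 fold change of 4.56. Klrc1, the gene of the inhibitory NKG2A, went from 0.665, 0.558 and 0.153 to 219, 198 and 176 CPM (log2 fold change 8.72 ± 0.35, adjusted p = 7.62e-10), and Klrc2, its activating relative, from 1.03, 0.398 and 0.153 to 45.03, 39.98 and 37.2 CPM (log2 fold change 6.23 ± 0.42). Klrd1, the gene of CD94, which pairs with both, fell from 206, 156 and 224 to 89.7, 64.03 and 70.9 CPM (log2 fold change -1.38 ± 0.24). The partner of NKG2A thus moved against it. Klrg1 and Klre1 had 2 and 3 naive counts and stood at 21.9, 20.05 and 21.9 and 6.87, 4.59 and 3.45 CPM, ratios of 416-fold (95% counting interval 115 to 3439) and 64.1-fold (95% counting interval 21.7 to 313). The Klr genes are close copies, so their counts are uncertain. Klrc2 stood at 7.18 (log2) without naive replicate 1.

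Immediate early genes, which receptor and stress signals switch on within minutes, were higher in 15 of 19 cases and lower in 1, with a median log2 fold change of 2.02. Fosb, an AP-1 subunit, was at 0.369, 0.239 and 0.0765 CPM in naive and 123, 95.4 and 82.6 CPM in day 14 libraries (log2 fold change 8.71 ± 0.50, adjusted p = 7.26e-08), and Fos at 0.517, 1.27 and 1.07 and 95.1, 57.6 and 48.1 CPM (log2 fold change 6.13 ± 0.39). Klf4, a factor of quiescence, was at 0.443, 0.0796 and 0.383 and 44.4, 29.5 and 20.3 CPM (log2 fold change 6.64 ± 0.79), and Atf3, a stress factor, had 3 naive counts and stood at 5.94, 5.59 and 1.88 CPM with a ratio of 57.9-fold (95% counting interval 19.6 to 283), and both followed the melanoma order. Myc, the growth regulator, was the gene that fell, from 101, 139 and 137 to 67.3, 71.8 and 87.5 CPM (log2 fold change -0.73 ± 0.20). Myc had been at 93.9, 139 and 135 CPM at day 4, and without day 14 replicate 3 a second member of the list was called lower. Day 14 and day 4 differed in 1 gene upward and 2 downward, where 7.17% and 4.91% of all genes were called.

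Promoter windows were read for these genes because AP-1 subunits, hypoxia genes and interferon genes were among those that moved. The windows, 250 bases before to 50 after a start, came from RefSeq on GRCm38.p6 and were matched by symbol for 9746 of 12367 tested protein-coding genes, with 12454 windows in all. The AP-1 letters TGANTCA (N is any base, and the motif reads alike on both strands) stood in 5.195% of all windows. The share was 6.93% (203 of 2928) for genes at least 2-fold higher, 5.78% for genes at least 2-fold lower and 4.28% for genes not called, and 9.26% (110 of 1188) for genes at least 16-fold higher and 7.19% (10 of 139) for genes at least 16-fold lower. Windows of Havcr2 (chr11:46454681-46454980, plus strand), Gzmb (chr14:56262285-56262584, minus strand), Prdm1 (chr10:44458699-44458998, minus strand) and Tnfrsf9 (chr4:150927749-150928048, plus strand) are printed because these genes are described above and hold the letters, which are in capitals. All are written 5′ to 3′ in the direction of the gene, and the capitals begin at base -200, -58, -48 and -15 from the start.
Havcr2: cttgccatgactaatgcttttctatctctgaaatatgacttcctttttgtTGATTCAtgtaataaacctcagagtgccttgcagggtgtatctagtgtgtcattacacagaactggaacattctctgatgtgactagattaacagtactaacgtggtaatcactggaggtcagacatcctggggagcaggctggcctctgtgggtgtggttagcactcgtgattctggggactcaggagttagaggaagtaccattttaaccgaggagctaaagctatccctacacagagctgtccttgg
Gzmb: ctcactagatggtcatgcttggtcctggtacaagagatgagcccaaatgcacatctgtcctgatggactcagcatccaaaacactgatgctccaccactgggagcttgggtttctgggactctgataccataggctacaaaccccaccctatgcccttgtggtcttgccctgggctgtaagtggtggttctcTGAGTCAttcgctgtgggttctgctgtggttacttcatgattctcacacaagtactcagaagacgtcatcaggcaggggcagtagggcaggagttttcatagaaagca
Prdm1: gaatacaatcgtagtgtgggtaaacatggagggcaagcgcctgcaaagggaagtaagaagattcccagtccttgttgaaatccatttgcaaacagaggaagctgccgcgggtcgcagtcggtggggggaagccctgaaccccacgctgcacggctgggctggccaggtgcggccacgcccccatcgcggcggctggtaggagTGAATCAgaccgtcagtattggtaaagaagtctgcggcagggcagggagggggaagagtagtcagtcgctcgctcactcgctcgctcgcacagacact
Tnfrsf9: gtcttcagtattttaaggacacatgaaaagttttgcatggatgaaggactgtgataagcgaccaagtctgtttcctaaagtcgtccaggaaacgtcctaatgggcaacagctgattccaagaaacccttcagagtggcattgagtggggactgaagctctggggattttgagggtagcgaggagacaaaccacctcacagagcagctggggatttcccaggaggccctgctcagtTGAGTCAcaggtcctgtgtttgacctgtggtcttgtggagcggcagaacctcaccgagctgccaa

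The hypoxia element letters TACGTG, on either strand, stood in 3.65% of all windows, 4.00% of those of genes at least 2-fold higher and 2.19% of those at least 2-fold lower. In the glycolysis list they stood in 4 of 26 windows, those of Aldoc, Gapdh, Hk1 and Pgam1. The interferon response element, on either strand, stood in 0.731% of all windows, 0.581% of those higher and 1.51% of those lower. In the interferon list it stood in 6 of 19 windows (31.6%), those of Bst2, Ifih1, Ifit1, Ifit3, Isg15 and Stat2. A window of Gapdh (chr6:125165724-125166023, minus strand), a glycolytic gene that rose, and that of Ifit3 (chr19:34583279-34583578, plus strand), an interferon gene that fell, are printed with these letters in capitals, on the reverse strand in both. They begin at base 43 and -122 from the start, and the Ifit3 window also holds AP-1 letters, left in lower case.
Gapdh: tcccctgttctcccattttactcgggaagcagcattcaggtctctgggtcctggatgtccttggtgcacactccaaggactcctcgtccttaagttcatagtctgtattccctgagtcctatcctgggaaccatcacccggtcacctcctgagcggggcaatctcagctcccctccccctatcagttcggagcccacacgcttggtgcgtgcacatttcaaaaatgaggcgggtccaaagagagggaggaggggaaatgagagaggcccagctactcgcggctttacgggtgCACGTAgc
Ifit3: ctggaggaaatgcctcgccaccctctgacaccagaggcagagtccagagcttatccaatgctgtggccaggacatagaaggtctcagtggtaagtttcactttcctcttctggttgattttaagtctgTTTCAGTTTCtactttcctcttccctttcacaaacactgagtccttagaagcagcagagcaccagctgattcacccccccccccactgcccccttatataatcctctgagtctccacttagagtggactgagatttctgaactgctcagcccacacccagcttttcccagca
The other 7 motifs, searched on both strands and none of them contained in another, gave these shares. As shares of all windows, of those at least 2-fold higher and of those at least 2-fold lower, the cyclic AMP element TGACGTCA stood in 2.99%, 2.19% and 2.30%. The NR4A element AAAGGTCA stood in 1.04%, 0.786% and 1.46%, the NFAT letters TGGAAA in 17.02%, 18.2% and 18.7%, and the NF-kappaB element in 0.112%, 0.171% and 0.224%. The E2F letters TTTCGCGC stood in 0.626%, 0.751% and 0.393%, the TCF/LEF letters CTTTGAA in 3.49%, 3.62% and 3.81%, and the E-box CACGTG in 9.71%, 7.51% and 10.2%. These shares are descriptions with no test, a match is not a binding site, and mean GC content was 59.9% in windows of genes at least 2-fold higher and 58.6% in those lower.

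Nearly all listed cell cycle genes were called higher at day 14. All 20 mitosis genes were called higher and at least 2-fold, with a median log2 fold change of 4.65, and so were 19 of 20 DNA replication genes, with a median of 2.58 over the list. The exception was the origin licensing factor Cdt1, which missed the threshold (log2 fold change 0.32 ± 0.19). Mki67 (ENSMUSG00000031004.8, chromosome 7, 135689784 to 135716361), the proliferation marker Ki-67, was at 72.8, 144 and 39.4 CPM in naive and 1912, 2329.8 and 2610.5 CPM in day 14 libraries (log2 fold change 4.74 ± 1.06, adjusted p = 0.00433). Replicate 2 was the highest of the naive libraries, but all lay below the day 14 libraries. Without naive replicate 2 the log2 fold change of Mki67 was 5.36 and that of Ccna2 6.02. The cyclins Ccnb2, Ccna2 and Ccnb1 and the spindle factor Tpx2 had log2 fold changes of 5.29, 5.28, 5.11 and 5.05. DESeq2 gave 13 of the 20 mitosis genes an adjusted p and called all 13. Of replication genes, Rrm2, a subunit of ribonucleotide reductase, was at 5.47, 11.2 and 5.36 and 155, 194 and 191 CPM (log2 fold change 4.62 ± 0.68), and the origin factors Cdc6, Cdc45 and Gins2 had log2 fold changes of 4.32, 4.22 and 4.11. In both lists 0 genes were called between day 14 and day 4, where 12.1% of all genes were. The median log2 differences were 0.03 for mitosis and -0.12 for DNA replication. The spread of the effector libraries entered these tests too (Mki67 at 42.8, 580 and 60.8 CPM). The SE of the log2 difference of Mki67 was 0.90, so a lack of calls does not show equal levels.

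Glycolysis genes were all higher, with 18 of 18 called, 17 of them at least 2-fold, and a median log2 fold change of 1.93. Hk2 (ENSMUSG00000000628.10, chromosome 6, 82725025 to 82774454), the inducible hexokinase, went from 1.03, 1.51 and 1.38 to 103, 77.5 and 89.2 CPM (log2 fold change 6.10 ± 0.30, adjusted p = 1.31e-09). Slc16a3, a lactate exporter, went from 0.739, 0.478 and 1.07 to 27.4, 33.98 and 24.9 CPM (log2 fold change 5.22 ± 0.36), and Tpi1, triose phosphate isomerase, from 23.6, 20.9 and 21.6 to 391.9, 378 and 343 CPM (log2 fold change 4.07 ± 0.18). Gapdh, whose promoter is shown above, went from 148, 177 and 184 to 1328, 1265 and 1222 CPM (log2 fold change 2.91 ± 0.10). The summed level of the list was 1362 to 1544 CPM in naive and 5416 to 5802 CPM in day 14 libraries, so the groups lay apart and the day 14 libraries close together. Aldoc had a log2 fold change of 5.06, or 5.70 without naive replicate 2. None of the 18 followed the melanoma order.

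Of 17 hypoxia response genes 14 were called higher and 2 lower, with a median log2 fold change of 1.33. Vegfa, the angiogenic factor, was at 0.369, 0.796 and 0.689 and 17.03, 13.5 and 5.63 CPM (log2 fold change 4.27 ± 0.74), Bnip3, a mitophagy receptor, at 1.11, 1.11 and 1.53 and 18.2, 10.6 and 8.72 CPM (log2 fold change 3.31 ± 0.34), and P4ha2, a collagen hydroxylase, at 0.296, 0.558 and 0.459 and 6.67, 4.06 and 2.06 CPM (log2 fold change 3.26 ± 0.59). All 3 followed the melanoma order. Car9, a carbonic anhydrase, was highest in day 14 replicate 1 too (26.2, 8.17 and 9.57 CPM), and its log2 fold change was 4.14 with and 3.43 without that library. The part of melanoma RNA in these 4 genes was not tested. Pdk1, a kinase that keeps pyruvate from mitochondria, and Kdm3a, a demethylase, fell, from 355, 284 and 332 to 61.2, 51.6 and 52.1 CPM (log2 fold change -2.56 ± 0.14) and from 194, 184 and 203 to 148, 133 and 120.2 CPM (log2 fold change -0.54 ± 0.10).

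Mitochondrial genes rose by less. Of 21 oxidative phosphorylation genes 17 were called higher, 6 of them at least 2-fold, and 0 lower, with a median log2 fold change of 0.85, led by Cox5a (1.48), Cycs (1.44), Uqcrq (1.21) and Sdhb (1.14). In the tricarboxylic acid cycle 10 of 16 were called higher and 1 lower, with a median of 0.42. Idh3a, Fh1 and Mdh2 had log2 fold changes of 1.21, 1.16 and 1.07, and Idh2, the NADP-dependent isocitrate dehydrogenase, fell from 27.8, 33.4 and 27.1 to 16.9, 13.5 and 12.2 CPM (log2 fold change -1.05 ± 0.17). Cholesterol synthesis had 14 of 20 higher and 1 lower, with a median of 0.91. Cyp51, a lanosterol demethylase, went from 20.99, 22.4 and 18.8 to 136, 188 and 160.3 CPM (log2 fold change 2.96 ± 0.29), and Sqle and Idi1 rose by 2.62 and 2.22 on the log2 scale. The gene called lower was Fdps (-1.23), a call lost without naive replicate 2 or 3 or day 14 replicate 2 or 3 (adjusted p = 0.0778, 0.103, 0.0648 and 0.131).

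Of 9 tested amino acid transporters 5 were called higher and 0 lower, with a median log2 fold change of 0.60. Slc3a2 and Slc7a5, which form the large neutral transporter, rose by 1.97 and 1.501, and Slc7a1 and Slc36a4 by 1.39 and 0.75. Metallothioneins and redox genes had 12 of 17 higher and 1 lower, with a median of 1.03. Mt1 and Mt2, which bind zinc and copper, had no naive count and stood at 26.8, 23.05 and 13.99 and 1.45, 0.882 and 1.03 CPM (at least 276-fold higher and at least 14.5-fold higher, floor 3 counts over the group). Txn1, thioredoxin, went from 25.1, 24.9 and 32.1 to 221, 246 and 255 CPM (log2 fold change 3.14 ± 0.22), and Prdx4, a peroxiredoxin of the secretory path, had a log2 fold change of 2.04. Txnip, which inhibits thioredoxin and glucose uptake, fell from 232, 226 and 256 to 84.97, 84.5 and 64.4 CPM (log2 fold change -1.61 ± 0.14), so thioredoxin and its inhibitor moved in opposite directions.

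Genes of the type I interferon response were lower in day 14 cells than in naive cells. Of 22 genes 14 were called lower, 13 of them at least 2-fold, and 1 higher, with a median log2 fold change of -1.77. Oas2 (ENSMUSG00000032690.16, chromosome 5, 120730333 to 120749853), a sensor of double-stranded RNA, was at 104, 168 and 171 CPM in naive and 2.38, 1.47 and 2 CPM in day 14 libraries (log2 fold change -6.25 ± 0.33, adjusted p = 8.11e-09). Oasl1 and Oasl2, its relatives, had log2 fold changes of -4.22 and -3.98, the former -5.001 without day 14 replicate 1. Usp18, which removes ISG15 and ends interferon signals, fell from 36.7, 52.4 and 50.1 to 4.16, 3.53 and 3.39 CPM (log2 fold change -3.65 ± 0.24), and Ifit3, an inhibitor of viral translation, from 39.6, 88.8 and 52.7 to 13.6, 7.11 and 10.7 CPM (log2 fold change -2.53 ± 0.43). Naive replicate 1 had the lowest level of these genes among the naive libraries. Isg20, an exonuclease, was the gene that rose, from 17.3, 21.1 and 18.2 to 39.1, 31.3 and 32.9 CPM (log2 fold change 0.87 ± 0.16), and without naive replicate 2 a second gene was called higher. Against day 4, 7 of the 22 genes were called higher at day 14 and 0 lower, where 7.17% and 4.91% of all genes were. Those 7 transcripts were thus lower at day 4 than at day 14. Oas and Ifit genes have close copies, so their counts are uncertain.

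MHC class I presentation genes differed little from naive cells, with 6 of 14 called higher and 2 lower, none at least 2-fold, and a median log2 fold change of 0.22. With total counts as scaling 5 were called lower. H2-Q6 and the transactivator Nlrc5 had log2 fold changes of 0.79 and 0.48, and B2m, the light chain, rose from 3134, 3055 and 3504 to 4469, 3983 and 3965 CPM (log2 fold change 0.36 ± 0.09). The peptide transporter genes Tap1 and Tap2 fell by 0.34 and 0.73 on the log2 scale. Against day 4, though, 13 of the 14 genes were called higher at day 14, where 7.17% of all genes were, and their median log2 difference was 0.64. GIMAP genes, GTPases of resting lymphocytes, had 7 of 8 called lower than naive, 4 of them at least 2-fold, with a median log2 fold change of -1.01. Gimap3, Gimap8, Gimap9 and Gimap6 fell by 1.55, 1.39, 1.26 and 1.05 on the log2 scale, and 6 of the 8 genes were called higher at day 14 than at day 4. Both families have close copies whose counts are uncertain.

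Protein folding and turnover genes were higher and ribosomal protein genes slightly lower. Of 18 unfolded protein response genes 14 were called higher and 2 lower, with a median log2 fold change of 1.05. Hspa5, the chaperone BiP of the endoplasmic reticulum, rose from 362, 515 and 539.6 to 1673, 1554 and 1653 CPM (log2 fold change 1.78 ± 0.14), and Sdf2l1, Xbp1 and Hsp90b1 had log2 fold changes of 2.42, 1.66 and 1.53. Dnajc3 and Ddit3, the gene of CHOP, fell by 0.66 and 0.79 on the log2 scale. Heat shock genes had 11 of 15 higher and 0 lower, with a median of 0.98. Hsp90ab1, a constitutive HSP90, had one of the 5 largest rises in CPM among the genes the naming rule covers, from 1660.3, 1838 and 2073 to 3637, 3857 and 4076 CPM (log2 fold change 1.05 ± 0.09), and Hsp90aa1 and Bag3 had log2 fold changes of 1.77 and 4.11. Hspa1a had no naive count and stood at 10.9, 8.88 and 10.7 CPM (at least 132-fold higher, floor 3 counts over the group), and its near copy Hspa1b had a log2 fold change of 2.96, both with uncertain counts. Proteasome genes had 15 of 18 higher and 0 lower with a median of 0.79, led by Psma1, Psmb2, Psmd1 and Psmb6 (1.23, 1.19, 1.06 and 1.05). Of 24 ribosomal protein genes 15 were called lower and 1 higher, with a median of -0.26 and none changed 2-fold. Rpl5, Rps24, Rps14 and Rps3 fell by 0.67, 0.66, 0.52 and 0.48 on the log2 scale. Without naive replicate 2, naive replicate 3 or day 14 replicate 1, 9 of the 24 were called lower. Rps2, the one called higher, lost its call without naive replicate 1 or 2 or day 14 replicate 2 or 3 (adjusted p = 0.111, 0.0665, 0.143 and 0.0755).

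Genes of survival and rest changed in both directions. Of 13 tested BCL-2 family genes 9 were called higher and 3 lower, with a median log2 fold change of 1.28, where 33.6% and 28.5% of all genes were called. Bcl2a1d, an A1 survival protein, went from 1.11, 0.319 and 0.383 to 89.2, 98.7 and 102 CPM (log2 fold change 7.28 ± 0.30), or 8.07 without naive replicate 1, and its close copy Bcl2a1b had 3 naive counts and a ratio of 146-fold (95% counting interval 49.7 to 711). Bcl2l1, the gene of BCL-xL, went from 2.88, 4.62 and 3.06 to 34.5, 21.5 and 28.7 CPM (log2 fold change 3.003 ± 0.27), and Pmaip1, the gene of the pro-death NOXA, from 5.03, 5.26 and 6.97 to 90.3, 80.7 and 85.4 CPM (log2 fold change 3.89 ± 0.18). Bcl2, which IL-7 sustains, fell from 417, 388 and 295 to 167, 153 and 117 CPM (log2 fold change -1.33 ± 0.16), as did Mcl1 (-0.77) and Bbc3, the gene of PUMA (-1.78). The survival genes thus moved apart, with A1 and BCL-xL higher and BCL-2 and MCL-1 lower. Of 18 quiescence genes 7 were called higher and 8 lower, with a median of -0.14. Tnfaip3 (ENSMUSG00000019850.11, chromosome 10, 19000910 to 19015657), the gene of A20, which ends NF-kappaB signals, had one of the 5 largest rises in CPM among the genes the naming rule covers, from 47.1, 49.2 and 75.6 to 2288, 1826 and 2025 CPM (log2 fold change 5.16 ± 0.17, adjusted p = 1.54e-11). Pik3ip1, an inhibitor of PI3 kinase, fell from 127, 124 and 137 to 6.34, 4.23 and 5.51 CPM (log2 fold change -4.60 ± 0.16), and Ndfip1 and Klf6 rose by 2.14 and 2.02 on the log2 scale.

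Chromatin enzymes had 9 of 19 called higher and 5 lower, with a median log2 fold change of 0.48. Ezh2, the histone methyltransferase of dividing cells, rose from 44.9, 59.3 and 54.4 to 218, 202 and 247 CPM (log2 fold change 2.07 ± 0.12), while its relative Ezh1 fell by 0.999 on the log2 scale. Uhrf1, which guides DNA methylation at replication, and the demethylase Kdm6b had log2 fold changes of 3.05 and 1.74. Tet1, an enzyme that oxidises methylated cytosine, fell from 104, 91.7 and 87.1 to 11.3, 8.76 and 4.3 CPM (log2 fold change -3.54 ± 0.30), and Tet3, Hdac7 and Hdac4 fell by 1.22, 0.78 and 0.68. Of 19 lysosome and lipid genes 10 were called higher and 4 lower, with a median of 0.37. Lgals1, galectin-1, went from 14.5, 23.97 and 24.4 to 314, 389 and 375 CPM (log2 fold change 4.10 ± 0.51), and Fabp5, a fatty acid carrier, from 2.22, 1.04 and 1.84 to 27.7, 23.7 and 19.7 CPM (log2 fold change 3.79 ± 0.28). Cd63, a tetraspanin of lysosomes and melanosomes, was at 0.0739, 0.319 and 0.0765 and 65.2, 32.3 and 20.8 CPM (log2 fold change 7.92 ± 0.59), in the melanoma order, and stood at 8.88 (log2) without naive replicate 2. Lgals3, galectin-3, had a log2 fold change of 6.32, or 8.63 without naive replicate 1.

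**Figure D4:**
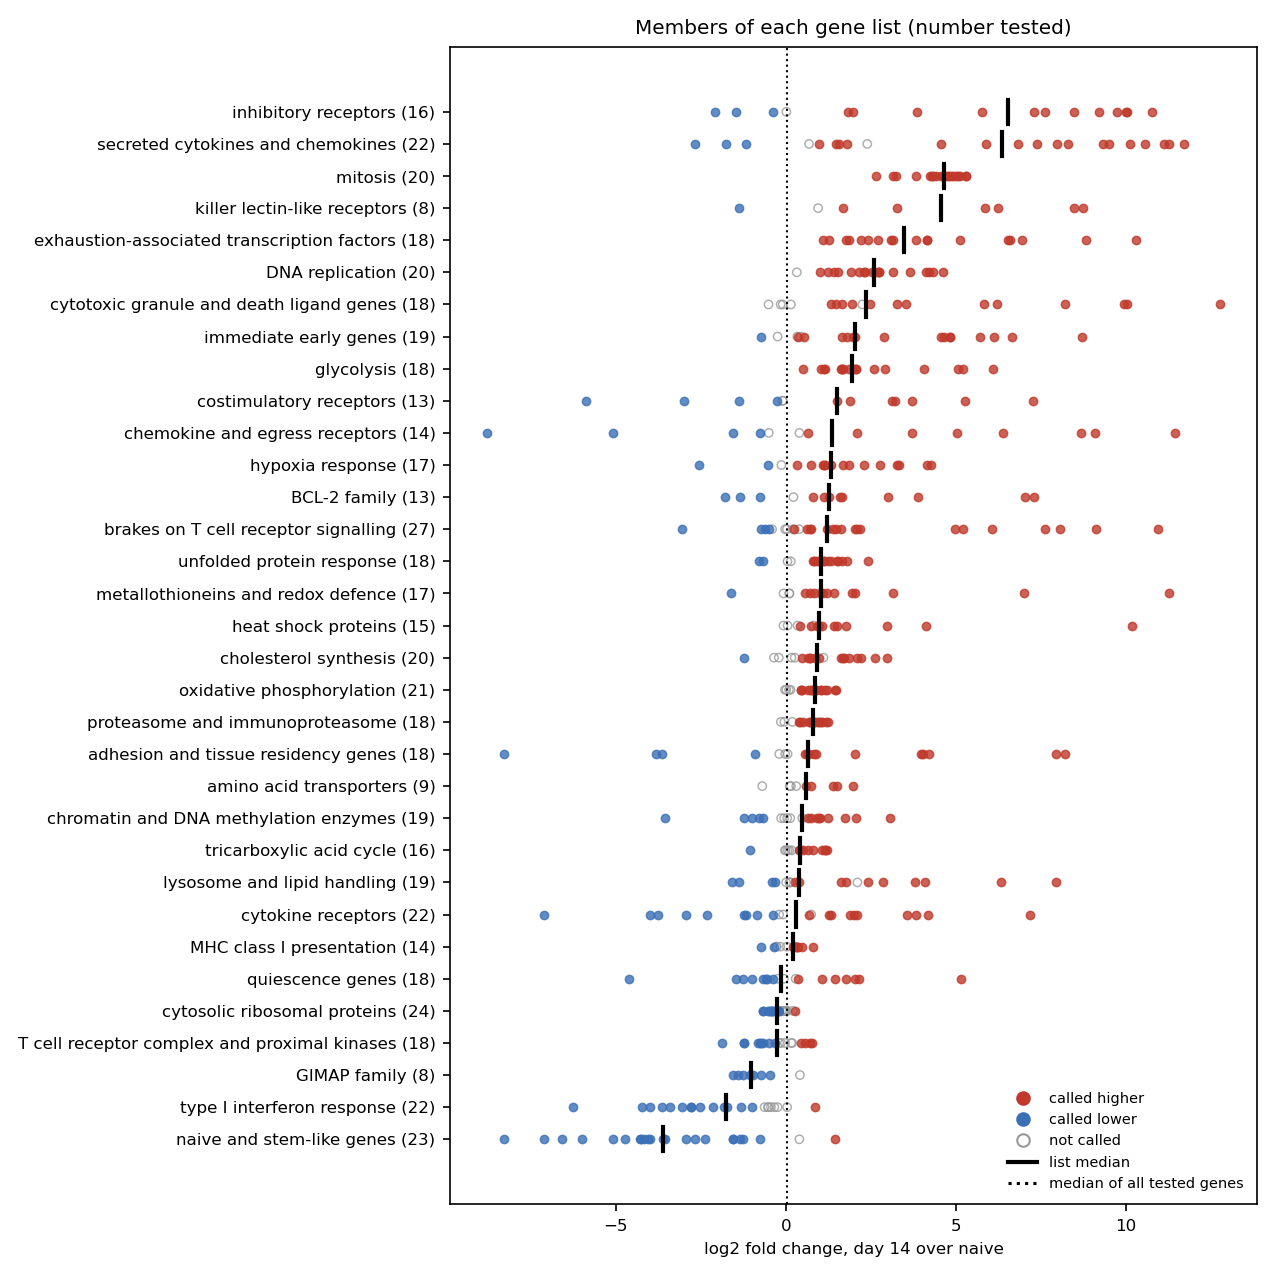
Each point is a tested member of a gene list, placed by its log2 fold change (day 14 over naive) and coloured by call, with the list median as a black bar and the median of all tested genes as a dotted line. Mitosis, glycolysis and the exhaustion-associated factors lie wholly to the right of that line, naive genes and interferon genes mostly to its left, and fitted values of genes without a naive count depend on the prior count.

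A few of the genes with the largest changes stood outside these lists. Rgs16 (ENSMUSG00000026475.7, chromosome 1, 153740349 to 153745468), a regulator of G protein signalling, went from 0.813, 0.239 and 0.383 to 649, 672 and 639.9 CPM (log2 fold change 10.37 ± 0.19, adjusted p = 1.45e-15), or 10.995 without naive replicate 1. Its day 14 libraries lay within 639.9 to 672 CPM, and it was also above day 4 (416, 398 and 393 CPM, log2 difference 0.70, adjusted p = 0.000477). Treml2, a receptor of the TREM family, fell from 216, 314 and 242 to 2.44, 0.176 and 1.7 CPM (log2 fold change -7.50 ± 0.46), or -8.09 (log2) without day 14 replicate 1. Tlr1, a Toll-like receptor for lipopeptides, fell from 343, 324 and 311 to 8.12, 5.76 and 12.96 CPM (log2 fold change -5.19 ± 0.28). Gm14085, a predicted protein-coding gene, fell from 417, 303 and 357 to 2.9, 0.764 and 2.18 CPM (log2 fold change -7.54 ± 0.46), and Tdrp from 346, 284 and 373 to 6.4, 3.65 and 5.03 CPM (log2 fold change -6.06 ± 0.29). Macf1, a large linker of microtubules and actin, had the largest fall in mean CPM of the 16426 genes tested, from 5111, 5278 and 6758 to 2233, 1889 and 2262 CPM (log2 fold change -1.43 ± 0.10). Shisa5, a p53 target of the endoplasmic reticulum, fell from 2008, 1992 and 2195 to 695, 663 and 765 CPM (log2 fold change -1.55 ± 0.08).

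**Figure D5:**
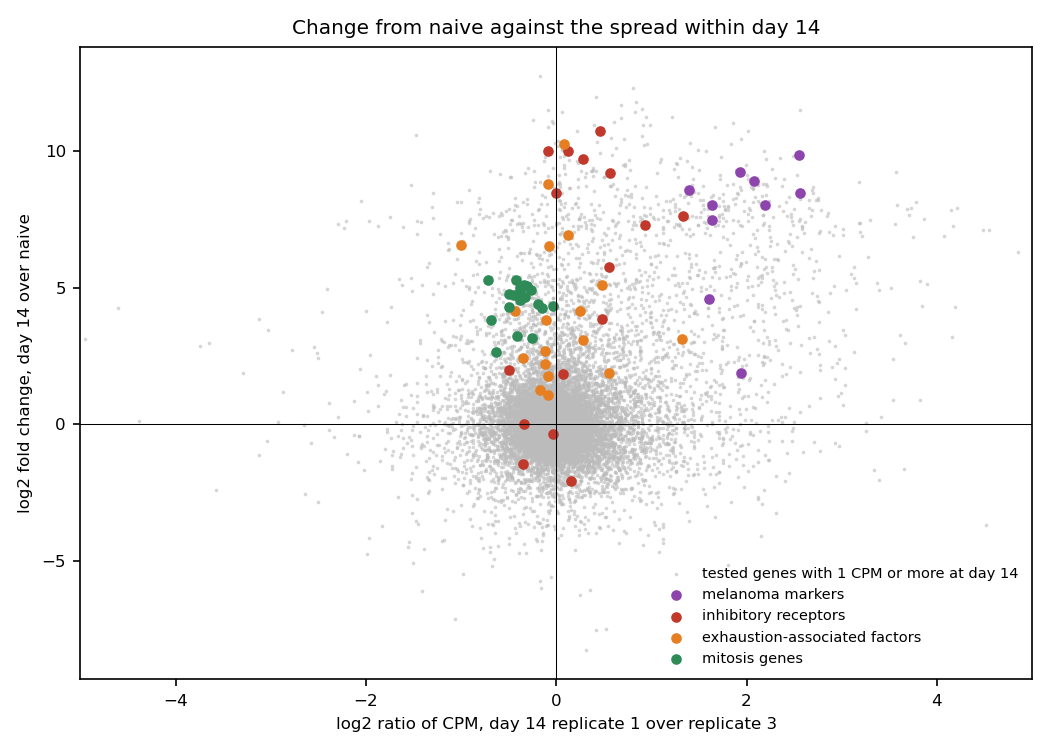
Each point is a tested gene with at least 1 CPM at day 14, with the log2 ratio of its level in day 14 replicate 1 over replicate 3 on the x axis and its log2 fold change over naive on the y axis, and 4 lists in colour. Melanoma markers lie to the right, where replicate 1 exceeds replicate 3, by 4.01 times in their sum, and most points of the other lists lie nearer to 0.

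The level in day 14 relative to day 4 was examined for the same genes, with both groups in the same fit. Of 16426 genes 1984 were called between them (12.1%), 1178 higher (7.17%) and 806 lower (4.91%) at day 14. Without day 14 replicate 2 the number was 1283, and without day 4 replicate 1 it was 1332 and without day 4 replicate 2 1347. Melanoma markers were not called in any of 10 cases between the tumour groups. In 8 lists at least as many tested members were called as not. MHC class I presentation had 13 of 14 members higher, GIMAP genes 6 of 8, inhibitory receptors 8 of 16 with 1 lower, and chemokine and egress receptors 5 of 14 with 3 lower. Naive and stem-like genes had 14 of 23 members lower and 1 higher, B cell markers 3 of 6 lower and endothelial markers 1 of 2 lower. CD8 T cell defining markers had 4 of 8 higher and 0 lower, namely Cd3g, Cd3e, Cd8a and Trbc1, with log2 differences of 0.74, 0.39, 0.34 and 0.35 from day 4. The T cell receptor complex and proximal kinases had 8 of 18 higher and 0 lower. Mitosis, DNA replication, glycolysis and immediate early genes, of which 20 of 20, 19 of 20, 18 of 18 and 16 of 19 were called against naive cells, had 0, 0, 4 and 3 members called between day 14 and day 4. The spread of the effector libraries entered these tests too, so few calls do not show equal levels. Comparisons of day 14 with naive and with day 4 share the day 14 libraries, so their values are given side by side with no test between them.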

How the data were processed

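Bulk mRNA-seq was made from 12 libraries of sorted OT-I T cells in 4 groups of 3, of which the 3 naive and 3 day 14 libraries were compared. Per the labels' protocols, RNA was amplified to cDNA (Ovation RNA-Seq System V2) and made into libraries with Nextera XT. Reads fell almost evenly on both strands (49.8% to 49.9% on the first), so strand is not kept. The authors deposited read counts per gene (STAR 2.6.1b and fastp 0.19.6 on GRCm38, per the submitters' processing notes). The annotation release is not given in the sources used here. Names were matched to GENCODE M21 for 55141 of 55401 identifiers. The unstranded column was used, reads outside genes were left out (22.7% to 30.2% of reads), and overlapping or antisense genes cannot be told apart. Reads mapping to several places were not counted, so levels of near-identical genes are uncertain.

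Counts were tested with edgeR 4.0.16 in R 4.3.3 (filterByExpr, TMM, robust quasi-likelihood fit of all 12 libraries, contrast of day 14 and naive, Benjamini-Hochberg adjustment over 16426 genes, threshold 0.05), after a test on simulated data. SE is the absolute log2 fold change over the square root of F. Alternatives were DESeq2 1.42.0, its size factors, total counts as scaling, no filter, genes outside the marker lists, the compared libraries alone, a replicate block, and each library left out. A further one, leaving out genes in the melanoma order, was chosen after seeing the data. Promoter windows are from RefSeq (GRCm38.p6).

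The gene lists (33 of function, 10 of other cell types and 1 of CD8 T cells) and a panel of key genes were chosen with earlier results of these data known. Named genes were protein-coding, called, without overlap between groups and with a mean of at least 4 on the log2 CPM scale: the 10 highest and 10 lowest log2 fold changes and the 5 largest rises and falls in CPM. Added were up to 4 called members per function list, the 2 most abundant of each marker list and the panel. Further genes, such as those that moved against their list, were chosen after their values were seen. A few genes the rule names are not reported here. Where naive libraries held no count, folds are lower bounds against 3 counts summed over the group, and with 1 to 3 counts they are ratios with 95% intervals that cover counting error only.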

Additional observations from a re-analysis of the deposited data

Results flagged for a closer look

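In 11 of the 24 panel genes reported here the change from naive cells differed between the tumour groups, by the edgeR contrast of day 14 with day 4 in the same fit. Of all genes 12.1% were called in that contrast, and the panel was chosen with earlier results of these data known. Since both changes are taken from the same naive libraries, this difference is the log2 difference of day 14 from day 4. Groups of 3 are too small for the check on a sample far from the others, so none was made.

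Of the genes of naive cells, Tcf7 was lower at day 14 than at day 4 by a log2 difference of -2.02 (edgeR adjusted p = 0.00417), with 252 ± 8.58 CPM at day 4 and 62.2 ± 36.5 CPM at day 14 (mean ± SD, n = 3 libraries each). Lef1 differed by -0.80 (edgeR adjusted p = 0.0266). Ccr7 differed by -2.37 (edgeR adjusted p = 0.000128), and its 2 changes had opposite directions, since 189 ± 23.8 CPM in naive cells stood below 569 ± 91.6 CPM at day 4 and above 111 ± 35.6 CPM at day 14. Klf2, also a gene of naive cells, went the other way and was higher at day 14 by 1.10 (edgeR adjusted p = 0.0267).

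Of the receptors and factors, Pdcd1 was higher at day 14 by 0.88, Ctla4 by 1.22 and Tox by 0.96 (edgeR adjusted p = 0.0187, 0.000629 and 6.02e-05). Of the effector products, Ifng was higher by 1.03, Ccl3 by 2.37, Prf1 by 2.41 and Ccl5 by 3.94 (edgeR adjusted p = 0.0135, 0.00435, 9.27e-05 and 0.00388). Perforin was at 43.3 ± 9.07 CPM at day 4, near its naive level of 41.5 ± 3.89 CPM, and at 230.2 ± 76.9 CPM at day 14. Ccl3 followed the melanoma order at day 14, and the part of melanoma RNA in its difference was not tested.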

How the results depend on the processing

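The number of genes called between day 14 and naive libraries was 10202, and 10046 with the replicate block. It was 10619 with DESeq2, 10716 with no filter, 9573 with the compared libraries alone, 9546 outside the melanoma order and 9511 to 10562 with each library left out. The labels do not say whether the replicate numbers pair the libraries. Deviations from the group mean correlated with r of -0.018 to 0.047 for same-numbered naive and day 14 libraries. For libraries of other numbers r was -0.054 to 0.025. With 3 libraries per group these values cannot decide whether the libraries are paired. Of 229 named genes, 4085 of 4117 values under the alternatives kept their direction and their side of the threshold. In the replicate block the call of Fdps was lost (edgeR adjusted p = 0.0503), and no other call of a named gene changed. Alas2, which was not called, had a log2 fold change of 0.046 and reversed with total counts as scaling (-0.028), and it ran from -0.30 to 0.32 with each library left out. Rps2 was also not called when scaled by total counts (edgeR adjusted p = 0.0778), and Fdps not with no filter (0.0878). Genes called between day 14 and day 4 numbered 1984, and 1283 to 2206 with each library left out, the lowest without day 14 replicate 2. The causes of these changes were not tested.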

Other observations

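Classes of genes that make no protein differed in the balance of their calls. Of 455 lincRNA genes 102 were called higher and 204 lower at day 14, and of 713 antisense genes 102 and 272, where 33.6% and 28.5% of all tested genes were. Of 252 processed transcripts 55 were called higher and 105 lower, and of 128 sense intronic genes 22 and 31. Processed pseudogenes, the most numerous of these classes, went the other way, with 186 of 994 called higher and 125 lower, as did snoRNA genes, with 13 and 4 of 73. Libraries keep no strand, so reads of antisense genes cannot be told from those of the genes they overlap. Segments of the antigen receptor loci did not move alike. All 8 tested immunoglobulin D segments were called lower, with a median log2 fold change of -7.17, and 35 of 67 tested T cell receptor J segments, with a median of -0.91, against 1 called higher. Of 7 immunoglobulin J segments 3 were called higher and 4 lower, and of 2 immunoglobulin V segments 0 were called. T cell receptor V segments had 12 of 42 called lower (28.6%, near the 28.5% of all genes) and 3 higher. Protein-coding genes made up 75.3% of the genes tested, 87.2% of those called higher and 74.6% of those called lower.

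Calls were less frequent among short genes. In the shortest of 5 equal bins of summed exon length 23.7% were called higher and 21.8% lower, and in the longest 38.2% and 33.9%. Level and gene class were not matched between these bins, and the part they play in this was not tested. Across 5 bins of transcript GC content the shares called higher ran from 32.0% to 35.3%.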
